A study of Oryctolagus cuniculus with 24 samples.

Results

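ENSOCUG00000008632 is a gene on the minus strand of rabbit chromosome 13 (genome build OryCun2.0), 1 of 17318 genes listed by the deposited tables and 1 of the 1586 on that chromosome. It was chosen for its higher level in lamina propria mononuclear cells (LPMC) of rabbits given Trichuris suis ova (TSO) and dextran sodium sulphate (DSS) than in untreated rabbits. The values of those LPMC libraries are therefore given as a description, and tests were made on intestinal epithelial cells (IEC) of the same rabbits. The tables pair the identifier with no symbol and no position within the chromosome. None of the identifiers was found in a RefSeq table of 38822 rabbit genes (mOryCun1.1), with 0 of 17318 matched, so the product of the gene and the sequence are not given here. The tables list it as present in 6 of 6 comparisons.

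RNAseq was performed on IEC and LPMC from the caeca of 12 New Zealand White rabbits, young and singly housed, with 3 rabbits in each of 4 groups and 24 libraries in all. TSO rabbits were gavaged with 3 doses of 2500 embryonated ova and Veh rabbits with the acidic buffer that carries the ova. All drank fennel tea, to which 0.1% DSS was added for the DSS rabbits during 5 days beginning on day 26, and the caecum was taken on day 35. The groups are TSO DSS, Veh DSS, TSO Water and Veh Water, none of them immunosuppressed. Each rabbit gave 1 IEC and 1 LPMC library. Room A housed 10 of the rabbits, including all those given DSS, and room B housed Veh Water rabbit 1 and TSO Water rabbit 2.

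T. suis is the whipworm of the pig, whose larvae invade the epithelium of the caecum and colon. Whipworm infection is known to draw a type 2 immune response of the mucosa. DSS is a sulphated polysaccharide that injures the epithelium of the large bowel, after which bacteria reach the lamina propria and neutrophils and monocytes enter from the blood. IEC were detached with EDTA, and LPMC were released by collagenase and purified over a density gradient. Neither fraction is a single cell type, and an IEC preparation can hold intraepithelial leukocytes. The deposited tables hold no symbols and the RefSeq table matched none of the identifiers. The defining markers of epithelium and of leukocytes were therefore not looked up here, and the purity of the fractions was not tested.

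On the listed genes, libraries held about 13148477 to 27479510 reads in IEC and 3685525 to 15770342 in LPMC, as recovered from the deposited values. Shares of a library are shares of these reads. The smallest library was that of LPMC TSO DSS rabbit 3. The share of mitochondrial genes in a library ranged from 9.06% to 46.5%, with the highest share in IEC of TSO DSS rabbit 3. Of the DSS rabbits, Veh DSS rabbit 1 stood apart from the others. For the 27 genes that were higher in the other 5 DSS rabbits than in all Water rabbits in both cell types, this rabbit lay nearer to the Water rabbits for 11, and for the 12 genes that were lower it did so for 11. ENSOCUG00000008632 itself is among the 27 higher genes and among the 11 of them nearer to Water. When another DSS rabbit was held out, the counts for higher genes ran from 0 of 19 to 3 of 27, and TSO DSS rabbit 3 was the other one that lay nearer to Water for some of the lower genes, 5 of 9. Results that rest on Veh DSS rabbit 1 are therefore also given without it.

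In LPMC, ENSOCUG00000008632 was scarce in rabbits without DSS and abundant in most rabbits with DSS. Levels are counts of the gene over the reads of the library on all listed genes, given as CPM. Veh Water rabbits 1, 2 and 3 had 2.28, 1.42 and 1.52 CPM, which came from 32, 16 and 17 reads. TSO Water rabbits had 3.38, 1.87 and 3.48 CPM. The 2 groups without DSS overlapped, and none of these 6 libraries exceeded 49 reads for the gene. Counting error alone gave the Veh Water rabbit with 16 reads a 95% exact binomial interval of 0.814 to 2.31 CPM.

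TSO DSS rabbits 1, 2 and 3 had 62.8, 352 and 16.0 CPM in LPMC, all above the 6 Water libraries. The lowest of them came from the smallest library, in which 59 reads gave a 95% exact binomial interval of 12.2 to 20.6 CPM. This interval lay above the highest Water library, whose own interval ran from 2.53 to 4.68 CPM. On the scale of log2(CPM + 0.1), TSO DSS had a mean of 6.15 ± 2.23 (SD, n = 3). That of Veh Water was 0.85 ± 0.35 (SD, n = 3), lower by 5.30. The difference was 4.14 without TSO DSS rabbit 2 and 6.36 without rabbit 3. The groups did not overlap, as was the case for 18% of all genes in this direction, and since the gene was chosen on this contrast nothing is read from that.

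Rabbits given DSS without ova held both the highest and the lowest LPMC level among the 6 DSS rabbits. Veh DSS rabbits 1, 2 and 3 had 9.71, 1978 and 299 CPM. In rabbit 2 the gene took 0.198% of the library, with a 95% exact binomial interval of 0.196% to 0.200%. The mean on the scale of log2(CPM + 0.1) was 7.49 ± 3.88 in Veh DSS (SD, n = 3), which was 6.64 above Veh Water, and Veh DSS did not overlap Veh Water either. Of all genes, 12.3% had every Veh DSS library above every Veh Water library. Without Veh DSS rabbit 1 the difference was 8.74, and without rabbit 2 it was 4.91. The difference between TSO DSS and Veh DSS was -1.34 and smaller than the SD of either group, whose libraries overlapped. It turned to 0.39 without Veh DSS rabbit 2. The comparisons against Veh Water share the 3 Veh Water libraries, on which the choice of the gene also rested, so none of the LPMC differences was tested. In bulk samples, more cells that carry the transcript and more transcript per cell cannot be told apart.

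**Figure D1:**
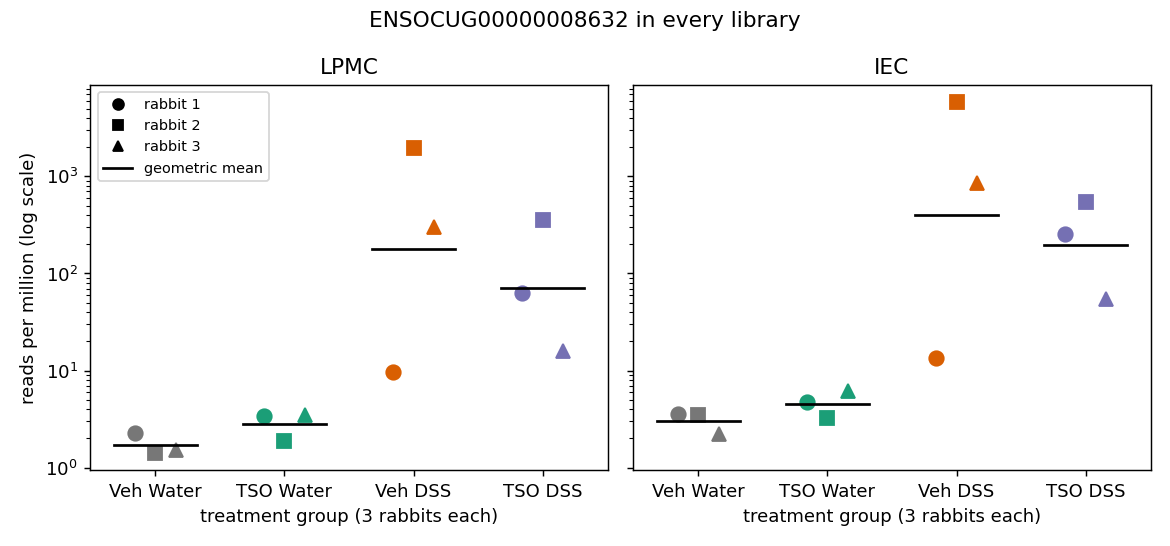
Level of ENSOCUG00000008632 in every library, in CPM on a log scale, for LPMC (left) and IEC (right). Points are rabbits, with 1 symbol per rabbit number, and bars are geometric means of 3 rabbits. In both cell types all 6 DSS libraries lie above all 6 Water libraries, and Veh DSS spans from 9.71 to 1978 CPM in LPMC and from 13.5 to 5778 CPM in IEC.

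The same arrangement was seen in IEC. These libraries were not those of the contrast that chose the gene, but they come from the same rabbits, so they are no independent evidence of its direction. Veh Water rabbits 1, 2 and 3 had 3.57, 3.45 and 2.21 CPM. TSO Water rabbits had 4.69, 3.26 and 6.22 CPM, a range that overlapped that of Veh Water. TSO DSS rabbits had 257, 543 and 54.8 CPM. Veh DSS rabbits had 13.5, 5778 and 849 CPM, so that the extremes of the 2 DSS groups both belonged to Veh DSS. In IEC of Veh DSS rabbit 2, about 112681 reads fell on the gene, 0.578% of the library with a 95% exact binomial interval of 0.574% to 0.581%.

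Whether the 2 treatments together change expression in IEC was tested against untreated rabbits. The same contrast in LPMC of these rabbits chose the gene, so its call in IEC is no independent evidence. With both treatments ENSOCUG00000008632 rose, with a log2 fold change over Veh Water of 6.25 (standard error 0.67, 95% interval 4.63 to 7.86, Benjamini-Hochberg adjusted p = 0.0061 by limma, 11225 genes tested). This fold change and those of the other groups against Veh Water are on the scale of log2(deposited value + 1). All other limma fold changes are on the scale of log2(TMM-scaled reads + 1), since those groups share no table. The gene was 1 of 389 called higher, 3.47% of the genes tested, where a call needed a log2 fold change above 1 beside an adjusted p below 0.05. All 3 TSO DSS libraries were higher than all 3 Veh Water libraries, which held for 7.27% of genes. The call was kept when any 1 of the 6 libraries was left out, and without TSO DSS rabbit 3 the log2 fold change was 7.02. When the spread was taken from 12 IEC libraries, Veh DSS included, the log2 fold change of 6.25 had an adjusted p of 0.106 and the call was lost.

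The contribution of DSS in rabbits that had received ova was addressed by comparing TSO DSS with TSO Water. Here the gene rose, with 5.41 as its log2 fold change (standard error 0.68, 95% interval 3.77 to 7.04, adjusted p = 0.017 from limma), 1 of 200 genes called higher, or 1.78% of those tested. This call was less stable, since it was lost without TSO DSS rabbit 1 (adjusted p = 0.106) and without TSO Water rabbit 1, 2 or 3 (adjusted p = 0.057, 0.080 and 0.060), and with all 12 IEC libraries in the fit (adjusted p = 0.241 from limma), while the log2 fold change stayed between 4.78 and 6.19 over the left-out libraries. Leaving out TSO Water rabbit 2 is the same as keeping room A only.

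DSS alone was compared with Veh Water in the same way. The log2 fold change of 7.12 in IEC was larger than that of TSO DSS, but the standard error was 2.02 and the 95% interval ran from 2.28 to 12.0, and the gene was not called (adjusted p = 0.507 from limma). Few genes were, 10 of 11193 or 0.0893%. Every Veh DSS library was above every Veh Water library, as was the case for 5.68% of genes. Veh DSS rabbit 1 decided the call. Without it the log2 fold change was 9.54 (standard error 0.82, adjusted p = 0.014 from limma), and 302 genes were called. Without Veh DSS rabbit 2 it was 5.18 (adjusted p = 0.868 from limma). DESeq2 on the recovered reads called the gene with all rabbits (log2 fold change 9.62, adjusted p = 8.8e-07) and edgeR did not (adjusted p = 0.383 from its quasi-likelihood test). A call for TSO DSS and none for Veh DSS does not show that these groups differ.

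That difference was tested directly. The log2 fold change of TSO DSS over Veh DSS in IEC was -0.89 (standard error 2.14, 95% interval -6.06 to 4.28, adjusted p = 1.0 from limma), a range that holds large differences in either direction. In this comparison 1 of 11355 genes was called, or 0.00881%. Without Veh DSS rabbit 1 the value was -3.31. Without Veh DSS rabbit 2 it was 1.03, so the direction rested on that rabbit. On the recovered reads the value was -2.94 with edgeR and -2.96 with DESeq2, neither called. An interaction term for both treatments, fitted to the 12 IEC libraries, asks whether DSS changed the gene by a different amount with ova than without. It was -1.71 (standard error 2.37, 95% interval -6.96 to 3.54, adjusted p = 1.0 from limma). Without Veh DSS rabbit 1 it was -4.15 and without rabbit 2 it was 0.23, and on the recovered reads it was -3.78 with edgeR and -3.84 with DESeq2, none of them called. This term was called by limma for 0 of 11382 genes (0%), and edgeR called 0 and DESeq2 9. By limma 171 had an unadjusted p below 0.05, fewer than that threshold would pass with no effect.

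With ova alone the gene was not called against Veh Water. In IEC the log2 fold change was 0.81 (standard error 0.32, 95% interval 0.05 to 1.58, adjusted p = 0.999 from limma), and the libraries of the 2 groups overlapped. In room A alone, with 2 rabbits a group, the log2 fold change was 1.07 (adjusted p = 0.991 from limma). The libraries did not overlap there. With so few libraries nothing is read from that, and the share of all genes was not counted. With both rooms no gene was called by limma, 0 of 10985 (0%), and edgeR called 0 and DESeq2 22. By limma 372 had an unadjusted p below 0.05, fewer than that threshold would pass with no effect. The difference in LPMC was 0.69 on the scale of log2(CPM + 0.1), with overlapping groups, and 1.17 in room A alone. The groups did not overlap in room A, and nothing is read from that either.

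**Figure D2:**
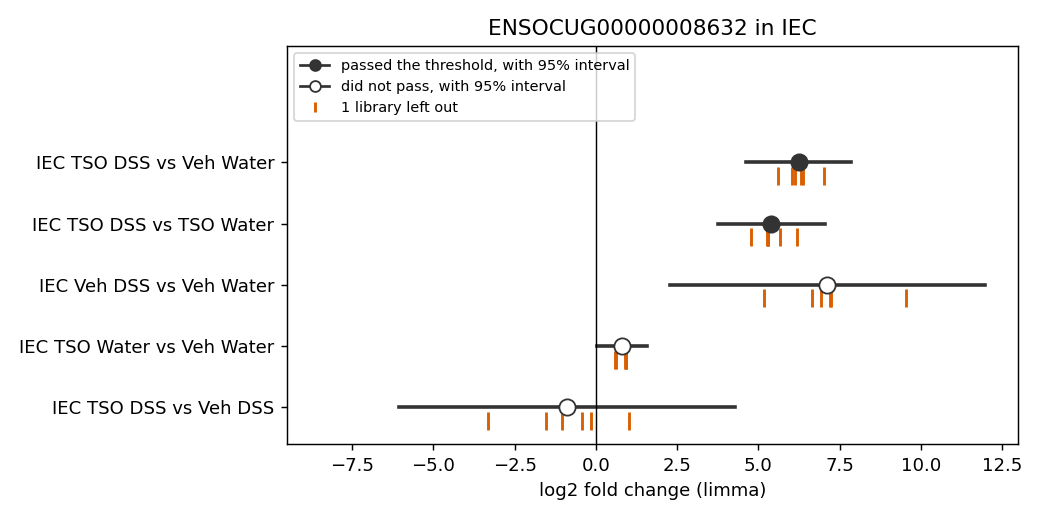
Log2 fold change of ENSOCUG00000008632 in IEC by limma for 5 comparisons, with 95% intervals as horizontal lines. Filled circles passed the threshold, open circles did not, and orange ticks are the fold changes with 1 library left out. The comparisons of TSO DSS against both Water groups lie at 6.25 and 5.41, Veh DSS against Veh Water has the interval from 2.28 to 12.0, and the comparison of the 2 DSS groups spans 0.

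Across all 12 rabbits, IEC levels were also set side by side by ova and by drink. TSO and Veh libraries, 6 of each, had mean levels of 4.92 and 5.15 on the scale of log2(CPM + 0.1), a difference of -0.23 (p = 0.918, exact two-sided permutation test). DSS and Water libraries, 6 of each, had mean levels of 8.14 and 1.93, a difference of 6.21. The comparison of DSS with Water was added after the libraries had been seen to lie apart, so it is given as a description with no test. All 6 DSS rabbits were higher than all 6 Water rabbits, and 2.07% of genes in IEC and 1.89% in LPMC had this arrangement. Without Veh DSS rabbit 1 the difference was 7.09, and within room A, where 4 Water rabbits remained, it was 6.15.

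The gap between the drinks was present under each of the scalings run. The lowest DSS library stood 2.16-fold above the highest Water library in IEC and 2.79-fold above it in LPMC. Both gaps ended at Veh DSS rabbit 1, and without it they were 8.81-fold and 4.60-fold. With mitochondrial genes left out of the totals and every rabbit kept, they were 2.10-fold and 2.83-fold, and with TMM scaling 2.07-fold and 2.65-fold. Arranged this way in both cell types were 18 of 11748 genes, or 0.153%. By the mean log2 difference between DSS and Water libraries, ENSOCUG00000008632 ranked 2 of these 18 in LPMC, with 5.62, and 2 in IEC. The LPMC part of this arrangement holds the contrast on which the gene was chosen, so nothing is read from the share or from the rank in LPMC.

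The rabbits of a DSS group had a larger SD than those of a Water group. In IEC the SD of log2(CPM + 0.1) was 4.46 in Veh DSS and 1.69 in TSO DSS, against 0.37 in Veh Water and 0.46 in TSO Water. The highest Veh DSS rabbit stood 429-fold above the lowest, and the highest TSO DSS rabbit 9.91-fold above the lowest. By this SD in Veh DSS it ranked 13 of 11382 genes of IEC, and the median gene had 0.37. In LPMC the SD was 3.88 in Veh DSS, which ranked 17 of 11371 genes, and the highest rabbit stood 204-fold above the lowest. The corresponding fold for TSO DSS in LPMC was 22, and in TSO DSS the gene ranked 467 by its SD in IEC and 483 in LPMC. The width of Veh DSS rested on rabbit 1. Without it, the remaining 2 rabbits stood 6.80-fold apart in IEC and 6.61-fold in LPMC, and the gene ranked 269 in IEC and 174 in LPMC by an SD of 1.96 and 1.93, beside 1.69 and 2.23 in the 3 TSO DSS rabbits. Whether the spread of the 2 DSS groups differs was not tested.

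The order of the DSS rabbits was the same in both cell types. Veh DSS rabbit 2 was the highest, rabbit 3 the next and rabbit 1 the lowest of its group in IEC and in LPMC. In TSO DSS the order from the highest was rabbit 2, rabbit 1 and rabbit 3 in both. In TSO Water rabbit 2 was the lowest in both, and rabbits 1 and 3 lay at 3.38 and 3.48 CPM in LPMC, an order that turned with TMM scaling and without mitochondrial genes. Veh Water rabbits, whose counting intervals overlapped in LPMC, had rabbit 1 as the highest in both and the other two in opposite orders. IEC and LPMC of a rabbit were prepared from the same piece of caecum, and RNA carried from one fraction into the other was not tested.

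IEC held more of the transcript than LPMC in 12 of 12 rabbits. The share of all genes with this arrangement was not counted, and the rabbits include those whose LPMC libraries chose the gene. In CPM the ratio of IEC to LPMC ran from 1.39 in Veh DSS rabbit 1 to 4.09 in TSO DSS rabbit 1, with a median of 1.77. With TMM scaling or without mitochondrial genes, other rabbits stood at both ends, with TSO DSS rabbit 3 the highest. Veh DSS rabbits 2 and 3 had similar ratios of 2.92 and 2.84, although their levels differed several-fold. Cell types were tested only in the 6 Veh DSS and TSO Water rabbits, whose LPMC libraries had not been used to choose the gene. The log2 fold change of LPMC over IEC was -0.94 (standard error 1.44, 95% interval -4.08 to 2.20, adjusted p = 0.651 from limma). Within rabbits, in a fit blocked by rabbit, as every rabbit gave both cell types, the same log2 fold change of -0.94 had a standard error of 0.18 and an adjusted p of 0.0059. Its size was under the log2 fold change of 1 that a call also requires. It lay on either side of that limit without the block, at -1.09 with edgeR, -1.11 with DESeq2 and -0.84 to -1.08 over left-out rabbits, with no call. In the fit without the block 19.1% of genes were called.

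**Figure D3:**
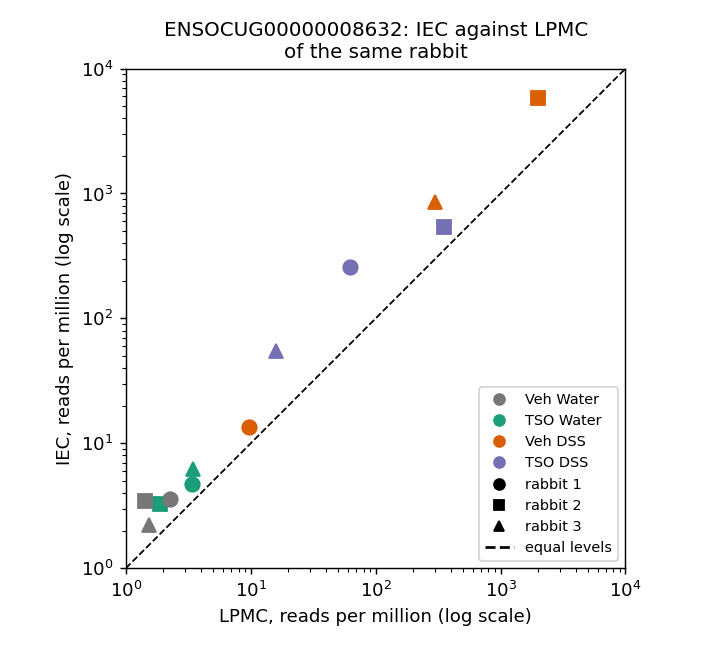
ENSOCUG00000008632 in IEC (vertical axis) against LPMC (horizontal axis) of the same rabbit, both in CPM on log scales, with the dashed line marking equal levels. Colours are treatment groups and symbols are rabbit numbers. All 12 rabbits lie above the line, the Water rabbits at no more than 6.22 CPM in IEC, and the DSS rabbits run up along the line to 5778 CPM.

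By mean level on the scale of log2(CPM + 0.1), the order was IEC Veh DSS (8.66), IEC TSO DSS (7.62), LPMC Veh DSS (7.49), LPMC TSO DSS (6.15), IEC TSO Water (2.22), IEC Veh Water (1.64), LPMC TSO Water (1.54) and LPMC Veh Water (0.85). The ranges of neighbours in this order overlapped, except between LPMC TSO DSS and IEC TSO Water, where the values passed from DSS to Water rabbits.

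The genes whose pattern was most like it were sought among 10079 genes by the lower of the Pearson correlations over the 12 LPMC and the 12 IEC libraries, on the scale of log2(CPM + 0.1). The correlations are descriptions, since the libraries share rabbits and groups. The most like was ENSOCUG00000009566, with r = 0.98 in LPMC and 0.99 in IEC, and the next was ENSOCUG00000022646, with 0.96 in both. Both also lie on chromosome 13, on the plus strand, and neither has a symbol in the tables. Of the 8 genes with correlations above 0.9 in both cell types 2 were on chromosome 13, and of the 31 above 0.8 it was 5, or 16.1%, beside 10.1% of all genes ranked. By Spearman's correlation the pair ranked 3 and 9.

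ENSOCUG00000009566 in LPMC had 50.5, 2995 and 752 CPM in Veh DSS rabbits 1, 2 and 3, and 110, 974 and 36.4 CPM in TSO DSS rabbits 1, 2 and 3. Its Water libraries in LPMC lay between 6.86 and 33.7 CPM. In IEC it had 57.1, 7129 and 1038 CPM in Veh DSS and 397, 1129 and 135 CPM in TSO DSS, with 6.90 to 23.7 CPM in the Water libraries. The rabbits of each DSS group thus came in the same order as for ENSOCUG00000008632, in both cell types.

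ENSOCUG00000022646 in IEC had 62.0, 7389 and 2056 CPM in Veh DSS rabbits 1, 2 and 3 and 827, 1319 and 105 CPM in TSO DSS rabbits. Its Water libraries in IEC lay between 1.45 and 16.6 CPM. In LPMC it had 78.5, 2809 and 1321 CPM in Veh DSS and 195, 1809 and 32 CPM in TSO DSS, with 1.11 to 3.65 CPM in the Water libraries. Again the order of the rabbits within each DSS group was that of ENSOCUG00000008632. Both genes were among the 18 whose DSS libraries all lay above the Water libraries. Reads were counted from libraries without strand, so that reads of genes that overlap on opposite strands cannot be told apart, and the positions of these genes were not used here.

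**Figure D4:**
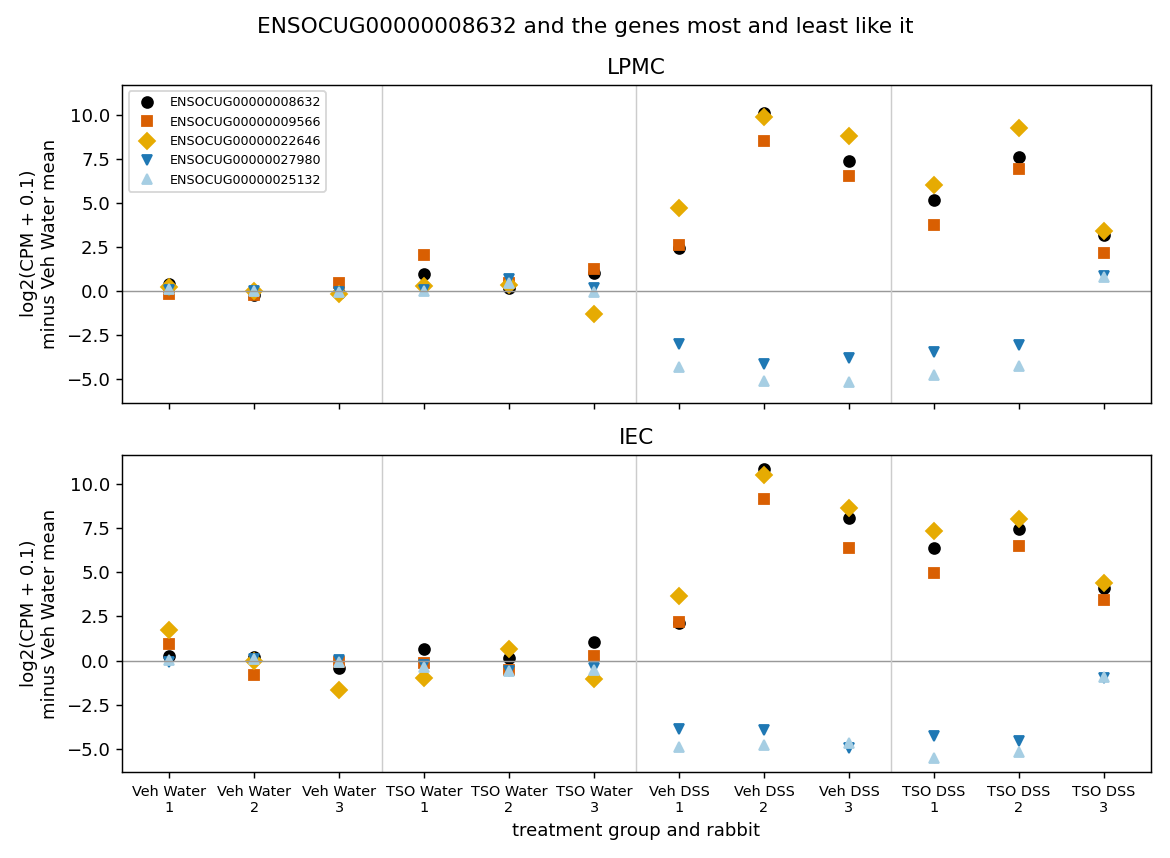
Levels of ENSOCUG00000008632, of the 2 genes most like it (ENSOCUG00000009566 and ENSOCUG00000022646) and of the 2 least like it (ENSOCUG00000027980 and ENSOCUG00000025132) in LPMC (top) and IEC (bottom), as log2(CPM + 0.1) minus the mean of the Veh Water libraries, for each rabbit. The first 3 genes lie above the Veh Water mean in all DSS libraries and are highest in Veh DSS rabbit 2, and the 2 least like genes lie below it in all DSS libraries of LPMC but that of TSO DSS rabbit 3.

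A different pattern was shown by ENSOCUG00000004736, another gene on the minus strand of chromosome 13 that was also higher in LPMC of TSO DSS than of Veh Water. In IEC it had 154, 60.6 and 242 CPM in TSO Water rabbits 1, 2 and 3 and 641, 76.4 and 1175 CPM in TSO DSS rabbits. Its level did not exceed 1.44 CPM in any IEC library of a Veh rabbit, Veh DSS included. ENSOCUG00000008632 in contrast had 3.26 to 6.22 CPM in IEC of TSO Water and up to 5778 CPM in Veh DSS. The order of the TSO DSS rabbits in IEC differed as well, with ENSOCUG00000004736 highest in rabbit 3 and ENSOCUG00000008632 lowest there. In LPMC both genes were lowest in TSO DSS rabbit 3. Over 12 libraries the Pearson correlation of the 2 genes was 0.17 in LPMC and 0.10 in IEC, and Spearman's was 0.43 and 0.34.

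**Figure D5:**
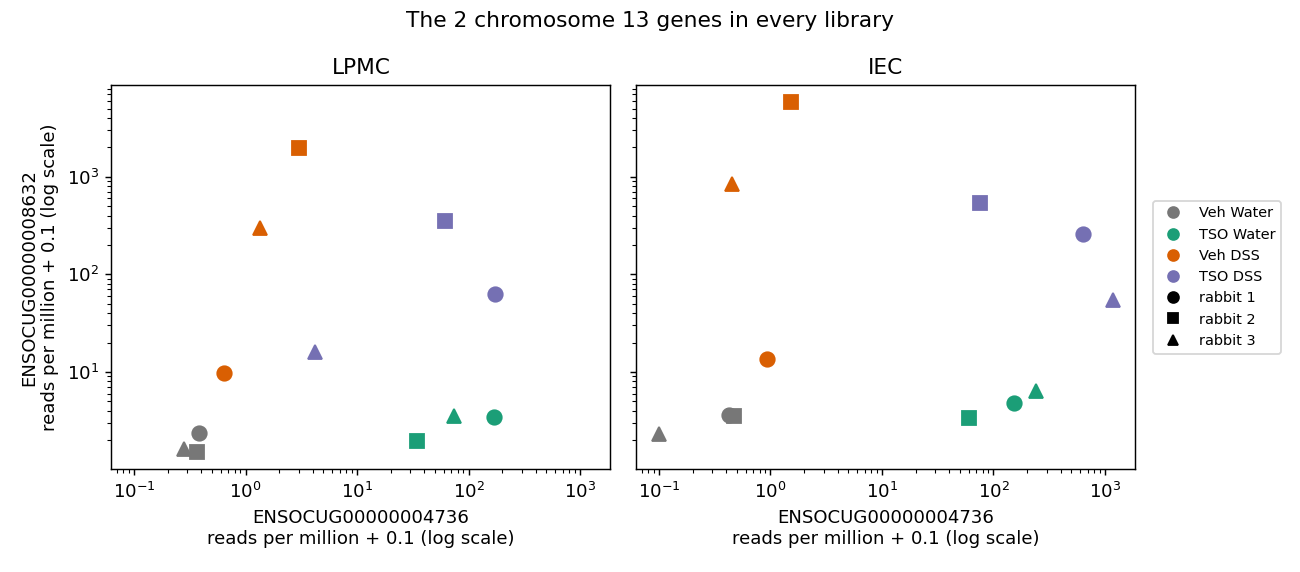
ENSOCUG00000008632 (vertical axis) against ENSOCUG00000004736 (horizontal axis) in LPMC (left) and IEC (right), both as CPM plus 0.1 on log scales. Colours are treatment groups and symbols are rabbit numbers. Veh DSS rabbits 2 and 3 are high on the vertical axis alone, with rabbit 1 lower at 9.71 CPM in LPMC and 13.5 CPM in IEC, TSO Water rabbits on the horizontal axis alone, and TSO DSS rabbits on both, apart from TSO DSS rabbit 3 in LPMC, which has 4.07 CPM of ENSOCUG00000004736.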

How the data were processed

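RNAseq of IEC and LPMC from 12 rabbits was analysed. The 6 tables deposited by the authors each set 1 treated group beside Veh Water in 1 cell type, with a normalized signal per gene and library, a flag for present genes, and their own log2 ratios, p-values and FDR, which were not used. Libraries were unstranded and polyA selected. The submitters' processing notes name the build OryCun2.0 and FastQC, and the aligner and counter are not given in the sources used here. The 36 columns were matched to libraries by the descriptions in the labels. Low values of each column are whole multiples of a step that equals 1 read, and up to 200 reads 100% of values came out within 0.1 of a whole number. Values are printed to 4 digits, so that larger counts are approximate. Veh Water reads of up to 200 were the same in all tables (0 genes differed).

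CPM is the value over its column sum. Rooms were taken from the sample sheet of a supplement. Tests used limma 3.58.1 (trend) in R 4.3.3 on log2(signal + 1) within a table, since each table was scaled separately, over genes marked present, and on reads scaled together by TMM (edgeR 4.0.16) where groups share no table. A call required an absolute log2 fold change above 1 and p below 0.05 after Benjamini-Hochberg adjustment. The permutation test of TSO against Veh used Python 3.11.15. Alternatives were a pseudocount of 0.1, no filter, scaling by library size, edgeR and DESeq2 1.42.0 on the reads, all 12 IEC libraries in the fit, a replicate block, room A only, and each library left out. The members and lists were chosen with earlier results of these data known. The genes named are the member, ENSOCUG00000004736, and the 2 genes most and the 2 least like the member among those with a mean of at least 1 CPM. Replicate numbers of different groups mark different rabbits. IEC and LPMC of a rabbit are pairs by their labels, and their deviations from the group means correlated between -0.08 and 0.33, above 0.1 in 7 of 12 rabbits. The scripts were tested on simulated data. Intervals on CPM cover counting error only. A p-value for 1 group against another rests on the spread between rabbits within these groups, with at most 3 rabbits in each. Fits to all 12 IEC libraries, the interaction included, pool that spread over the groups. The permutation test of TSO against Veh compared libraries pooled over DSS and Water. The cell type fit blocked by rabbit rests on differences within rabbits.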

Additional observations from a re-analysis of the deposited data

How the results depend on the processing

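The call of ENSOCUG00000008632 in IEC of TSO DSS against Veh Water was lost at 6.25 with all 12 IEC libraries in the fit and held in the other alternatives run, with log2 fold changes of 5.60 to 7.02 over left-out libraries. Room A only is the same fit there as leaving out Veh Water rabbit 1. For TSO DSS against TSO Water it held with the other pseudocount, filter and scaling, with edgeR and DESeq2 and without TSO DSS rabbit 2 or 3, with 4.78 to 6.19 over left-out libraries. It was lost at 5.41 with the replicate block (adjusted p = 0.071 from limma), at 5.43 with all 12 IEC libraries (adjusted p = 0.241) and at 5.30 in room A only (adjusted p = 0.080). Replicate numbers of different groups mark different rabbits, and deviations of libraries with the same number correlated between -0.33 and 0.26. The block changed no other call of the gene, and the number of genes called fell from 401 to 202 for TSO DSS against Veh Water and from 204 to 56 against TSO Water.

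For Veh DSS against Veh Water the log2 fold change was 9.62 and called with DESeq2, and 5.18 to 9.54 over left-out libraries. The value of TSO DSS against Veh DSS in IEC ranged from -3.31 to 1.03 over left-out libraries and the interaction from -4.15 to 0.23, each turning positive without Veh DSS rabbit 2. That of TSO against Veh over all rabbits ranged from -1.06 to 1.24, and turned positive without Veh DSS rabbit 2 (1.24) or 3 (0.69) and without TSO Water rabbit 1 (0.31), 2 (0.41) or 3 (0.23). In LPMC, TSO DSS minus Veh DSS ranged from -3.44 to 0.39 over left-out libraries, and TSO Water minus Veh Water was 1.17 in room A only. The difference between DSS and Water in IEC, given with no test, ranged from 5.34 to 7.09 over left-out libraries. Causes of these changes were not tested.

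The numbers of genes called, over all alternatives, ranged from 127 to 746 for TSO DSS against Veh Water, 0 to 402 for Veh DSS against Veh Water, 0 to 22 for TSO Water against Veh Water, 0 to 31 for TSO DSS against Veh DSS, 12 to 476 for TSO DSS against TSO Water and 0 to 9 for the interaction. On the recovered reads, the edgeR quasi-likelihood test called 366, 2, 0, 0, 181 and 0 genes in these comparisons. In LPMC of Veh Water, where the gene had 16 to 32 reads in a library, the 95% counting intervals of the 3 rabbits overlapped.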

Other observations

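The genes least like ENSOCUG00000008632, by the rule that also gave the most like, were ENSOCUG00000027980 on chromosome 4 (r = -0.85 in both cell types) and ENSOCUG00000025132 on chromosome 9 (r = -0.84 in LPMC and -0.83 in IEC). By Spearman's correlation they ranked 112 and 77 from the least like. ENSOCUG00000025132 had 17.9 to 26.2 CPM in the 6 Water libraries of LPMC and 24.3 to 39.0 CPM in those of IEC. In 5 of the 6 DSS rabbits it did not exceed 0.868 CPM in LPMC and 1.33 CPM in IEC. In TSO DSS rabbit 3 it had 32 CPM in LPMC and 19.6 CPM in IEC. ENSOCUG00000027980 went the same way, with 0.190 to 0.539 CPM in LPMC of those 5 DSS rabbits and 9.23 CPM in TSO DSS rabbit 3, beside 4.93 to 8.23 CPM in the Water libraries. In IEC it had 0.280 to 0.710 CPM in those 5 rabbits, 5.86 CPM in TSO DSS rabbit 3 and 7.76 to 12.4 CPM in the Water libraries.

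For both genes TSO DSS rabbit 3 thus lay above the range of the Water libraries in LPMC and below it in IEC, and in each it was several-fold above the other DSS rabbits. Its LPMC library was the smallest, with 34 reads of ENSOCUG00000027980 and 118 of ENSOCUG00000025132. Counting intervals were not computed for these genes. For ENSOCUG00000008632 it lay above all Water rabbits, with 16.0 CPM in LPMC and 54.8 CPM in IEC. When this rabbit was held out, 9 genes were lower in the other 5 DSS rabbits than in all Water rabbits in both cell types, and for 5 of them it lay nearer to the Water rabbits.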
